A study of Homo sapiens with 40 samples.

Results

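The regions described here are the 25-kb bins of human chromosome 19 (build hg38) that overlap no gene whose symbol begins with ZNF, the large family of zinc finger genes clustered on that chromosome. They number 1879 of the 2345 bins of chromosome 19 and of 121213 bins over chromosomes 1 to 22 and X, and span 47.0 Mb. The other 466 bins of the chromosome hold at least 1 of its 304 annotated ZNF genes. The bins were picked for a low share of gained bins and a high gene density. In each library a bin was scored by the percent of its bases inside the authors' merged broad peaks of H3K27me3. The comparison in which the low share was first seen is not stated, so the share of gained bins is given as a description of these bins, and nothing is supported with it.

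KMS-11, a human myeloma cell line with the t(4;14) translocation that drives high NSD2 levels, was profiled by CUT&Tag. The H3K27me3 libraries used number 30, in 15 groups of 2. The tested groups were the NSD2-dTAG clones 8 and 11, each a single clone engineered from a parental KMS-11 line, at days 7, 14 and 21 of dTAGV-1 at 100 nM, and their reference was the same clones at day 0, untreated but carrying the tag as well. NSD2 knockout (KO) clones 3 and 12, each a single clone without NSD2, were set against their own parental KMS-11 line. The untagged parental line of the dTAG clones was profiled at days 7, 14 and 21 and at day 0 too, as a test of the compound without a tag to bind; its dose is not stated. Replicates are stated to be biological for the KO and dTAG clones; for the parental lines nothing says so, and the spread there may be technical. A clone's libraries on different days are not independent clones.

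H3K27me3 is the mark written by the Polycomb complex PRC2 and is found over silent genes and their promoters. NSD2 writes dimethylation of lysine 36 of the same histone tail (H3K36me2), and PRC2 works poorly on tails that carry it. The dTAGV-1 molecule joins a tagged protein to the VHL ubiquitin ligase, which leads to its degradation. In CUT&Tag an antibody directs a transposase to the mark, so that sequenced fragments mark where it sits. Chromosome 19 is the most gene-dense human chromosome and is rich in CG dinucleotides, and PRC2 is known to be recruited to silent CG islands.

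The promoters below show the range of CG content among the genes the results turn on. Each is the RefSeq sequence (GRCh38.p14) from 250 bases before to 50 bases after the gene start, on the gene's strand, 5′ to 3′, with each CG dinucleotide in capitals. LGALS16 (chr19:39655663-39655962, plus strand) and LGALS14 (chr19:39704231-39704530, plus strand) encode placental galectins, CLC (chr19:39737980-39738279, minus strand) encodes galectin-10 of eosinophils, and CYP2A6 (chr19:40850398-40850697, minus strand) encodes the liver enzyme that oxidises nicotine. All 4 lie in bins that gained coverage and hold 2 or 3 CG. CNN2 (chr19:1026358-1026657, plus strand), the gene of an actin-binding calponin, lies in a bin that lost coverage and has 38 CG. KLF2 (chr19:16324576-16324875, plus strand) is a transcription factor of lymphocyte and endothelial quiescence. Its promoter has 49 CG, the most of those printed, and lies in a bin that gained coverage.
LGALS16: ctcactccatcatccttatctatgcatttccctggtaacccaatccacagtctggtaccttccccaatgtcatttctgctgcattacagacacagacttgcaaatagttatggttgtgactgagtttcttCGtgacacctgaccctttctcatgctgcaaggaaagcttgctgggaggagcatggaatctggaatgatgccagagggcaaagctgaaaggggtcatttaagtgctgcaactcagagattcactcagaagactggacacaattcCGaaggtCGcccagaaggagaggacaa
LGALS14: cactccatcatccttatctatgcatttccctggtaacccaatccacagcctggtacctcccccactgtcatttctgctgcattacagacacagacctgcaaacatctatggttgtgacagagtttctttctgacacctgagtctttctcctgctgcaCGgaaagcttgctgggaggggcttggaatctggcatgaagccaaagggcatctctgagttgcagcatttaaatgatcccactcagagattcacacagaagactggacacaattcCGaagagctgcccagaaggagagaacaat
CLC: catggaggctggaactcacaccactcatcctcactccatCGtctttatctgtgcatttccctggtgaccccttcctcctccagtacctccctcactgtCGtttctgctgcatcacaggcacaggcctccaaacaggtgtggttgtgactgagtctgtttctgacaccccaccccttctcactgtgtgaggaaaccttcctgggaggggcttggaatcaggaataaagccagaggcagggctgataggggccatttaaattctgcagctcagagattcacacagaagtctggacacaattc
CYP2A6: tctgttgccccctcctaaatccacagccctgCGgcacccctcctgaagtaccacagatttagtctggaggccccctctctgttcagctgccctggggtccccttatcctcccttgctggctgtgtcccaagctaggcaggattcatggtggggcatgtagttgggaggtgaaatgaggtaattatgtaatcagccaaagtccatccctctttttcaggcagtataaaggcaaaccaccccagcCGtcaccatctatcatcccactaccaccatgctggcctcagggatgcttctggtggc
CNN2: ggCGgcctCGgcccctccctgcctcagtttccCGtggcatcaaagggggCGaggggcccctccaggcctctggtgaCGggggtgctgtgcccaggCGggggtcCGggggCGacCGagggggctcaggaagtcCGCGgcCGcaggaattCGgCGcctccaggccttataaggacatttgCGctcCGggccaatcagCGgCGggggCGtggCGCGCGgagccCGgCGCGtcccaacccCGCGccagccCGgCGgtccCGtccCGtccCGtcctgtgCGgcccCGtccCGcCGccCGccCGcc
KLF2: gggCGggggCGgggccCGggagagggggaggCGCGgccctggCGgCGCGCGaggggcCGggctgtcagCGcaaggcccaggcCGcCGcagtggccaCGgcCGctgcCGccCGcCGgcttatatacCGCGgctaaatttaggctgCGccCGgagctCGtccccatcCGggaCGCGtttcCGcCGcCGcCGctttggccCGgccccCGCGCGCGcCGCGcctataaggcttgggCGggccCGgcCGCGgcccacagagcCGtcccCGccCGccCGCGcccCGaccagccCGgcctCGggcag
LGALS16 and LGALS14 were identical at 84.2% of the aligned bases, in an alignment without gaps over a short range of shifts. For CLC that alignment gave 29.6% and 29.8%, but its range stopped short of the shift at which stretches shared by the printed sequences line up. The values for CLC therefore do not measure its likeness to the other galectin promoters. In the clones at day 21, against day 0, the authors' peaks covered on average 25.0% against 0% of the LGALS16 promoter, 0% in both groups of that of LGALS14, 100% against 75% of that of CLC and 75% against 20.4% of that of CYP2A6. The CNN2 promoter was covered to 89.2% at day 21 and to 100% at day 0, and the KLF2 promoter to 100% in both. The LGALS16 promoter was reached by a peak in 1 of 4 libraries at day 21 and in 0 of 4 at day 0. Promoter values are the share inside called peaks; promoters of active housekeeping genes, which are known to lack the mark, were inside peaks as well, so whether a peak at a gene start holds H3K27me3 was not tested.

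The deposited lists held 34740 to 205920 peaks per library and covered 36.1 to 168 Mb. Read depth is not in the files; the background pileup that the peak folds imply, used here as a stand-in for depth, ran between 0.922 and 3.26. The bins held 2777 to 6991 peaks per library, and replicates correlated over the bins with Pearson's r of 0.778 to 0.885, a description over bins that share a library. As a check of the label, 6 plasma cell genes had medians of 0% to 8.75% of their length covered, and 8 genes of other cells had medians of 0% to 26.8%, so the 2 lists overlapped. Peak lists of a histone mark cannot show the loss of the NSD2 protein.

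These bins were picked for gene density, so their higher density than the rest of the genome follows from the choice. They held 1.14 protein-coding genes per bin, against 0.583 in the other bins, and 1174 such genes in all. The ZNF bins of the chromosome held more, 1.35 per bin, and chromosome 17 held 0.898. Of the bins, 29.2% overlapped no protein-coding gene, 51.8% lay partly in a gene and 19.1% lay wholly inside one, against 50.1%, 18.3% and 31.6% of the other bins. Bases within 1 kb of a gene start made up 5.19% of the bins and 1.80% of the rest. Peaks were spread widely over them: 1092 bins (58.1%) held a peak in all 30 libraries, against 12.1% of the other bins. At the other end, 245 bins were never covered, 138 of them in a single stretch (chr19:24200001-27650000) that holds the centromere.

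The most covered bins were still far from full coverage. Averaged over the untreated lines (both parental lines and the dTAG clones at day 0), the bin of IL11, COX6B2 and GARIN5B (chr19:55350001-55375000), which holds the gene of the cytokine interleukin 11, was 49% covered. The bin of CD177, a neutrophil surface protein (chr19:43350001-43375000), and that of MEIS3, a homeobox factor (chr19:47400001-47425000), were both 39.4% covered. No bin exceeded the upper limit of the test, a mean of 99%.

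In the treated clones the mean coverage of the bins differed from that of day 0 by less than the spread between libraries, while that of the rest of the genome was higher in every treated library. The mean percent covered over the 1879 bins was 10.1 ± 0.598 at day 7, 9.21 ± 1.62 at day 14 and 9.85 ± 2.01 at day 21, against 8.96 ± 2.13 at day 0 (SD, n = 4 libraries each). By library, the values at day 21 were 11.9% and 9.38% in clone 8 and 10.9% and 7.25% in clone 11, against 11.9% and 6.80% in clone 8 and 8.67% and 8.48% in clone 11 at day 0. The 2 groups overlapped over most of their range. Over the rest of the genome the mean was 3.59% at day 7, 3.64% at day 14 and 3.88% ± 0.972 at day 21, against 1.56% ± 0.439 at day 0. No p-value is given for means over the bins, because the bins were chosen with results of these data known.

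**Figure D1:**
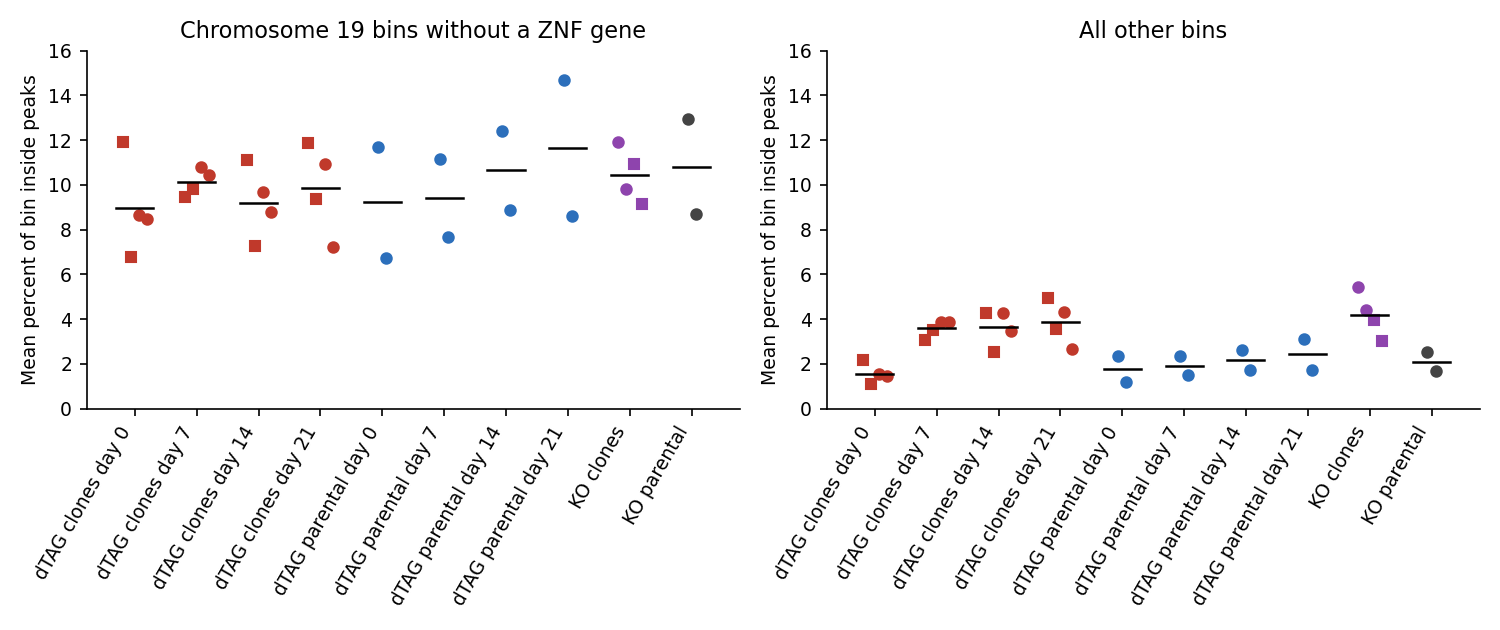
Mean percent of a bin covered by H3K27me3 peaks per library (y axis, linear, in percent), for the chromosome 19 bins without ZNF genes and for the rest of the genome, by group (x axis). Each point is 1 library, squares are clone 8 and KO clone 12, circles the other lines, and lines are group means; the chromosome 19 values at day 21 (mean 9.85%) and day 0 (8.96%) overlap, while those of the rest of the genome (3.88% and 1.56%) do not.

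The ratio of the 2 levels separated the groups in every library. The bins were picked for a low share of gained bins on this same score. A fall of the ratio in treated libraries was therefore favoured by the choice, and nothing is supported with it. The log2 of coverage in the bins over coverage in the rest was 1.26 and 1.39 in clone 8 and 1.34 and 1.43 in clone 11 at day 21, against 2.47 and 2.62 in clone 8 and 2.49 and 2.56 in clone 11 at day 0. Its mean was 1.50 at day 7, 1.36 at day 14 and 1.36 ± 0.0733 at day 21, against 2.53 ± 0.0714 at day 0, a difference of −1.03, −1.18 and −1.18. On the linear scale the bins were 2.56 times as covered as the rest at day 21, against 5.80 times at day 0. As a share of all called length, the bins held 3.88% ± 0.188 at day 21 and 8.37% ± 0.382 at day 0. Most of the shift was present by day 7.

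**Figure D2:**
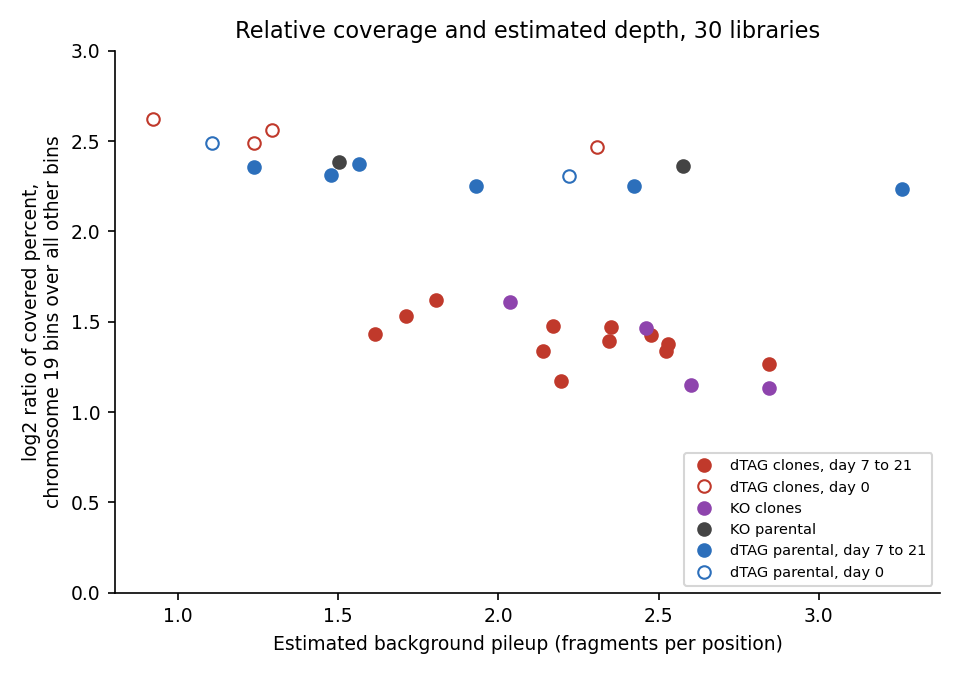
Log2 ratio of mean coverage in the chromosome 19 bins over the rest of the genome (y axis) against the background pileup implied by the peak lists (x axis, linear), 1 point per library, with day 0 as open circles. Clones at day 21 lie between 1.26 and 1.43 and clones at day 0 between 2.47 and 2.62, at pileups that overlap.

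Depth moved with the groups: the background pileup averaged 2.33 ± 0.521 at day 21 and 1.44 ± 0.601 at day 0. At nearly the same depth, clone 8 replicate 2 at day 21 had a pileup of 2.35 and a log2 ratio of 1.39, against a pileup of 2.31 and a log2 ratio of 2.47 in clone 8 replicate 1 at day 0, a pair picked after its values were seen. The part of depth in the ratio was not tested beyond these values. The direction of the change in mean coverage of the bins themselves depended on the scaling: it was −8.83 percentage points at day 21 after scaling every library to the same called length, −4.68 after division by the pileup and −2.39 with lists shortened to equal length. With lists of equal length the difference in log2 ratio was −0.68 instead of −1.18; the other 2 settings multiply all bins of a library by 1 number and cannot change the ratio.

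The shift of the ratio, which the choice of the bins favoured, was seen within each class of gene overlap. At day 21, against day 0, the log2 ratio was 0.68 against 2.18 for bins without genes, 0.73 against 1.58 for bins partly in a gene and 1.51 against 2.72 for bins wholly inside a gene, each set against the bins of the same class elsewhere. Against chromosomes 22 and 17 the shift was smaller. Of these, chromosome 17 held 0.898 protein-coding genes per bin and chromosome 22 held 0.613, near the 0.583 of all bins outside the rule. The log2 ratio over chromosome 22 was 0.64 against 0.99, a difference of −0.35, and over chromosome 17 it was 0.43 against 0.99, a difference of −0.56. Over the ZNF bins of chromosome 19 itself, which lie just outside the rule, the log2 ratio was 1.95 at day 21 and 1.68 at day 0, a difference of 0.27.

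The difference in the ratio was no smaller away from gene starts. Within 1 kb of gene starts, 31.7% ± 3.67 of the bins' bases were covered at day 21 and 31.7% ± 4.92 at day 0, while in the rest of the genome the values were 22.9% and 17.6%. Away from gene starts the bins had 8.65% at day 21 and 7.72% at day 0, against 3.53% and 1.27% in the rest, and the log2 ratio was 1.31 at day 21 and 2.62 at day 0. The share of called length near gene starts was 17.0% at day 21 and 18.6% at day 0 in these bins, against 10.9% and 20.6% in the rest.

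Bin by bin, 1463 of the 1879 bins (77.9%) had a mean coverage between 1% and 99% and entered the limma fit with Benjamini-Hochberg adjustment over all 49812 tested bins; the other 416 fell below 1%. At day 21, 149 of them (10.2%) gained and 20 (1.37%) lost coverage against day 0 at an adjusted p under 0.05, where the share over all tested bins was 51.6% gained and 0.367% lost. At day 7 the counts were 102 gained and 9 lost, against 39.5% and 0.159% of all tested bins, and at day 14 they were 101 and 22, against 47.1% and 0.387%. The median difference at day 21 was 0.698 percentage points in these bins and 4.70 in the rest. In 136 bins (9.30%) all 4 libraries at day 21 lay above all 4 at day 0, against 45.9% of all tested bins, and in 26 (1.78%) all lay below, against 0.532%.

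These counts rested on single libraries and on the scaling. The 149 gained bins became 87 without clone 8 replicate 2 of day 0, 95 without clone 8 replicate 1 of day 21 and 79 without clone 11 replicate 1 of day 21. The 20 lost bins became 49 without clone 8 replicate 2 of day 0, 9 without clone 8 replicate 1 of day 0, 7 without clone 8 replicate 2 of day 21, 9 without clone 11 replicate 2 of day 0 and 9 without clone 11 replicate 2 of day 21. The split into gained and lost was 56 to 920 after scaling to the same called length, 63 to 284 with the pileup as a covariate and 5 to 179 with lists of equal length. Losses thus outnumbered gains among these bins in these 3 settings. Over all tested bins the split was 25698 to 183 in the main fit, and 18783 to 8524, 16200 to 2284 and 2261 to 1664 in the same 3 settings. Losses thus rose with these settings over the whole genome too, while gains stayed the more numerous there.

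Gains were unevenly spread among the bins. Of the bins without a gene 43 of 246 (17.5%) gained at day 21, of those partly in a gene 73 of 943 (7.74%), and of those wholly inside a gene 33 of 274 (12.0%), against 62.0%, 45.4% and 49.2% of such bins elsewhere. The share fell with the level in the parental lines, which the contrast did not use. Over classes of 0% to 2%, 2% to 5%, 5% to 10%, 10% to 20% and over 20% covered it was 36.9%, 15.1%, 13.1%, 6.12% and 0.935% in these bins, against 68.0%, 45.3%, 41.5%, 27.7% and 7.33% elsewhere. The filter, a mean of at least 1% over all 30 libraries, included the treated ones. A bin low in the parental lines can therefore be tested because its treated libraries are high. Shares in the low and gene-free classes are thus partly set by the filter. Without it 107 of the 1879 bins gained, against 21282 of all 121213 bins. On the short-arm side of the uncovered stretch 29 of 659 bins (4.40%) gained, and on the long-arm side 120 of 804 (14.9%). The ZNF bins next to them gained in 6 of 242 cases (2.48%) and lost in 9 (3.72%). As a whole, chromosome 19 had the lowest share of gained bins (9.09%) of all 23 chromosomes, and chromosome 22 the next lowest (27.1%).

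**Figure D3:**
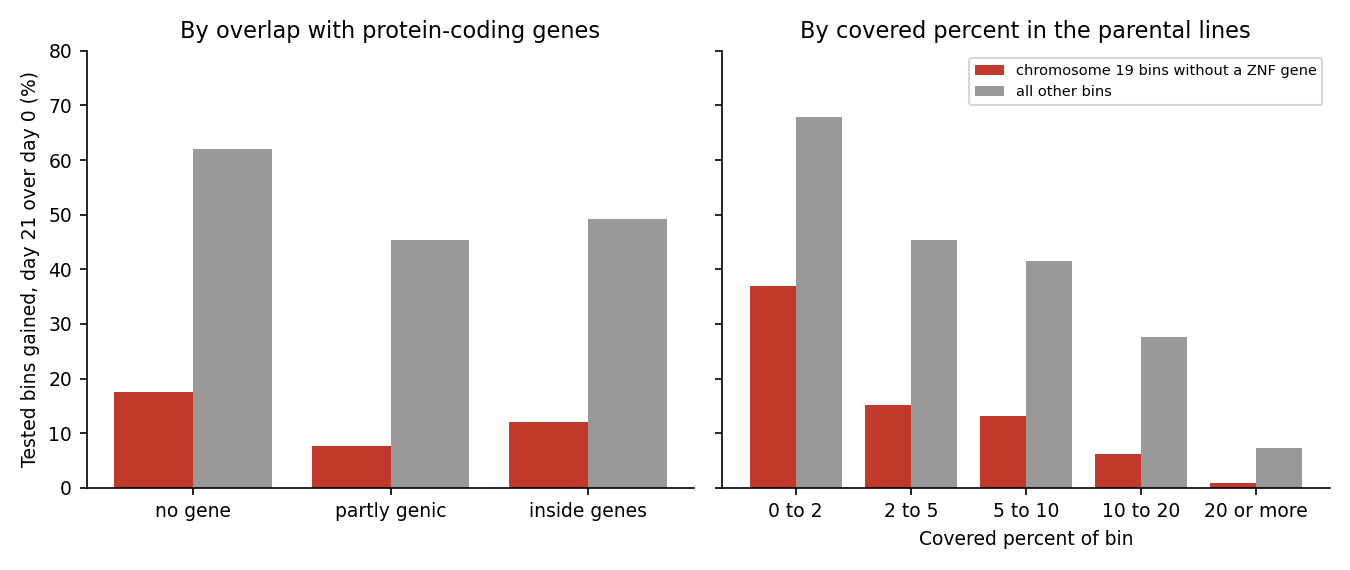
Percent of tested bins called as gained at day 21 against day 0 in the dTAG clones (y axis, linear, starting at 0), for the chromosome 19 bins without ZNF genes and for the rest of the genome. Bars stand for classes of gene overlap and of parental-line coverage. In each class the chromosome 19 bar (36.9% at most) is the lower of the pair. Bins were tested by their mean over all 30 libraries, treated ones included, which partly sets the shares in the low classes.

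The largest gained stretch lay over the galectin cluster of 19q13. The 149 gained bins formed 91 runs, 62 of them single bins, and the longest run was 12 bins or 300 kb (chr19:39525001-39825000). It holds EID2 and EID2B, inhibitors of the acetyltransferase EP300, the galectin genes LGALS13, LGALS16, LGALS14 and CLC, and LEUTX, a homeobox gene of the early embryo. Over the run 13.4% and 12.5% were covered in clone 8 and 15.8% and 11.6% in clone 11 at day 21, against 3.68% and 1.55% in clone 8 and 2.88% and 3.42% in clone 11 at day 0. The treated libraries were all high and the untreated ones all low, with means of 13.3% ± 1.82 and 2.88% ± 0.951; the run was found from these same libraries. The highest adjusted p of its 12 bins was 0.0208 (limma). At day 7 and day 14 the first 6 bins of it were already a gained run, with means of 12.1% and 11.4% against 1.79% at day 0. Its last 5 bins, with LGALS14, CLC and LEUTX, were a second gained run at day 7. At day 14 a gained run of 3 bins (chr19:39775001-39850000) covered the end of it.

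Within that run the bin of LGALS16 (chr19:39650001-39675000) had 14.0%, 15.2%, 15.4% and 17.3% covered at day 21, against 2.11%, 4.14%, 2.31% and 0% at day 0, libraries in the order clone 8 then clone 11 as in all lists of 4 below. The treated libraries were much alike, and the difference was 13.4 percentage points (adjusted p = 0.000242). That the groups did not overlap was a condition for naming this bin, and likewise for the other bins named for their gain or loss. The bin of CLC (chr19:39725001-39750000) had 22.3%, 15.7%, 17.8% and 15.6% at day 21, against 6.06%, 0%, 5.10% and 9.31% at day 0. The untreated libraries varied most there, and the difference was 12.7 points (adjusted p = 0.00192). The gene-free bin before LGALS16 (chr19:39625001-39650000) had 9.34%, 9.63%, 21.1% and 15.9% at day 21, against 0%, 1.79%, 0% and 0% at day 0 (difference 13.6, adjusted p = 2.69e-05). There the treated clone 11 libraries were the higher ones.

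The bin with the largest gain lay in FCGBP, the gene of a mucus protein that binds the Fc part of IgG, just beyond the galectins (chr19:39850001-39875000). It had 27.3%, 13.4%, 20.1% and 7.21% covered at day 21, against 3.56%, 0%, 0% and 0% at day 0. Treated libraries differed widely among themselves, the difference was 16.1 points (adjusted p = 0.00151), and its call held in each alternative that gave a value. A gene-free bin 34058 bases from ZNF780A (chr19:40125001-40150000) had 20.4%, 13.9%, 15.3% and 7.39% at day 21, against 0.964%, 0%, 0.976% and 0% at day 0 (difference 13.8, adjusted p = 0.000196). The second FCGBP bin (chr19:39925001-39950000) was well covered before treatment, with 27.0% ± 1.70 at day 21 and 14.6% ± 3.54 at day 0 (difference 12.4, adjusted p = 0.0121). Its call was lost without clone 8 replicate 2 of day 0 (adjusted p = 0.0579) and its difference turned to −5.23 after scaling to the same called length.

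In some gained bins the untreated clones were lower than the untagged parental line. The bin of FBXO46 and MEIOSIN, a switch into meiosis, (chr19:45725001-45750000) had 30.5%, 16.1%, 19.5% and 11.9% at day 21, against 7.03%, 3.20%, 6.76% and 4.54% at day 0 (difference 14.1, adjusted p = 0.00543). In the untagged line it had 22.9% and 17.6% at day 21 and 17.0% and 13.2% at day 0, so all 4 untreated clone libraries lay below all 4 of the untagged line. The bin of APOC4 and APOC2, the activator of lipoprotein lipase, (chr19:44925001-44950000) had 24.9% ± 3.63 at day 21 and 12.9% ± 5.94 at day 0 (difference 12.0, adjusted p = 0.0150), against 32.0% and 16.0% in the untagged line at day 0. Its call was lost without replicate 1 of clone 8 at day 21, either day's replicate 1 of clone 11 or replicate 2 of clone 8 at day 0 (adjusted p up to 0.0920), and it turned to −3.17 after scaling. The bin 11407 bases from SLC1A5, a glutamine transporter gene, (chr19:46800001-46825000) had 17.7% ± 4.95 at day 21 and 4.63% ± 3.43 at day 0 (difference 13.0, adjusted p = 0.00315).

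The next longest gained runs were shorter. A run of 6 bins that overlaps LSM14A, the gene of a component of P-bodies, (chr19:34025001-34175000) averaged 7.71% at day 21 and 1.52% at day 0. A run of 5 bins over TDRD12, of the germline piRNA pathway, and SLC7A9, a cystine transporter, (chr19:32725001-32850000) averaged 9.94% and 1.54%. The runs of EGLN2, a prolyl hydroxylase of the hypoxia response, with CYP2A6 (chr19:40800001-40875000) and of CYP2B6, a drug-metabolising enzyme (chr19:40925001-41000000), averaged 12.5% and 12.4% at day 21 and 4.06% and 3.39% at day 0. The call of the CYP2A6 bin at position 40850001 was lost without clone 11 replicate 1 of either day (limma, adjusted p up to 0.0793). A run with PVR, the ligand CD155, and the CEACAM19 and CEACAM16 genes (chr19:44600001-44700000) averaged 14.9% at day 21 and 5.00% at day 0, with fragile calls given below for the CEACAM genes. Gene-free runs of 4 bins each began at positions 28400001 and 28625001, beyond the centromere, with 7.35% and 8.91% at day 21, against 0.307% and 1.56% at day 0.

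The NLRP genes near the end of the long arm, a branch of the NLR family with members expressed in oocytes, were the list with the most gained bins here: 6 of 20 tested gained and 0 lost, with a median difference of 3.03 percentage points. Over all tested bins of the genome 51.6% gained, with a median of 4.57, so the list lay below both. The bin of NLRP13 (chr19:55900001-55925000) had 14.6%, 17.4%, 7.13% and 8.85% covered at day 21 and no peak in any library at day 0, a difference of 12.0 points (adjusted p = 1.49e-05). The clones differed in this bin at day 21, a spread that its limma p-value leaves out, like those of the other bins. The untagged parental line had 1.71% and 1.40% there at day 21 and 0% in both replicates at day 0. NLRP4 (chr19:55850001-55875000) and the bin shared by NLRP8 and NLRP5, a maternal-effect gene of the oocyte, (chr19:55975001-56000000) had 4.35% ± 1.54 and 7.90% ± 4.95 at day 21 and were at 0 in all day 0 libraries (adjusted p = 0.00121 and 0.00199). The calls of NLRP9 (7.94% at day 21, 0% at day 0) and NLRP11 (5.68% and 1.13%) were lost without replicate 1 of either clone at day 21. They were also lost without replicate 1 of clone 11 or replicate 2 of clone 8 at day 0. That of NLRP9 was lost without replicate 2 of clone 11 at day 0 as well (adjusted p up to 0.190 for NLRP9 and 0.192 for NLRP11). The call of the NLRP8 bin at position 55950001 was lost without clone 8 replicate 1 of day 21 (adjusted p = 0.108).

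**Figure D4:**
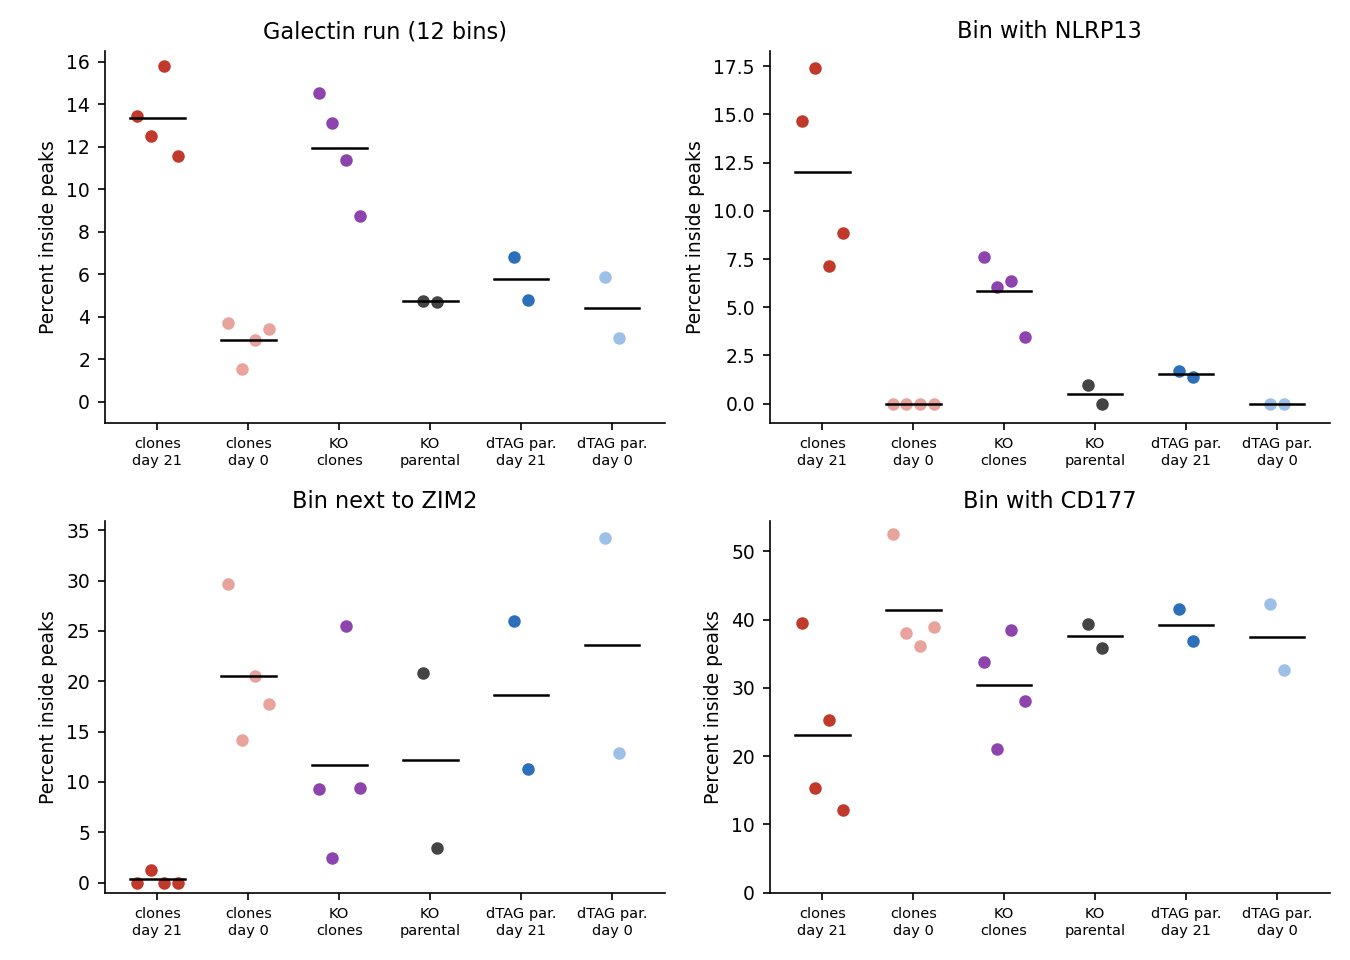
Percent of bases covered by H3K27me3 peaks per library (y axis, linear) in 4 places of chromosome 19: the 12-bin galectin run, the NLRP13 bin, the bin next to ZIM2 and the CD177 bin. Groups run along the x axis and each point is 1 library; the galectin run averages 13.3% in clones at day 21 and 2.88% at day 0, the NLRP13 bin is at 0% in all clone libraries of day 0, and the bin next to ZIM2 is at 0% in 3 of 4 clone libraries of day 21.

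Among the lost bins the largest fall lay 24547 bases from ZIM2, an imprinted gene beside PEG3 (chr19:56725001-56750000). It had 0%, 1.29%, 0% and 0% covered at day 21, against 29.6%, 14.1%, 20.5% and 17.8% at day 0. All treated libraries were nearly empty and all untreated ones well covered, with a difference of −20.2 points (adjusted p = 0.00334). At day 14 it was part of a lost run of 3 bins (chr19:56700001-56775000), with 1.39% against 11.3% at day 0. The untagged line kept 26.0% and 11.3% at day 21 and had 34.2% and 12.9% at day 0.

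The bin of CNN2 and ABCA7, a lipid transporter, (chr19:1025001-1050000) had 8.65%, 6.46%, 10.8% and 12.0% covered at day 21, against 21.8%, 20.8%, 18.5% and 23.3% at day 0 (difference −11.6, adjusted p = 0.000433). The bin of STX10 and IER2, an immediate early gene, (chr19:13150001-13175000) had 11.8%, 16.2%, 13.6% and 8.99% at day 21, against 23.7%, 19.0%, 23.8% and 24.1% at day 0 (difference −10.0, adjusted p = 0.00432). Both calls held with any single library left out. MUC16, the gene of the tumour antigen CA125, (chr19:8925001-8950000) had 2.46%, 0%, 1.28% and 5.88% at day 21, against 21.6%, 7.11%, 13.5% and 20.0% at day 0 (difference −13.1, adjusted p = 0.0104); without clone 8 replicate 1 of day 0 the difference was −9.53 and the adjusted p 0.0676.

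Further losses passed the test over FCGRT, the neonatal Fc receptor (−7.89, adjusted p = 0.0171), AXL, a receptor tyrosine kinase (−6.61, adjusted p = 0.0199), NFIC, a transcription factor (−4.38, adjusted p = 0.0224), KEAP1, the adaptor that targets NRF2 (−2.89, adjusted p = 0.00966), SLC1A6, a glutamate transporter (−11.0, adjusted p = 0.0350), and ZSCAN18 (−7.77, adjusted p = 0.0445). All 6 calls rested on single libraries. That of FCGRT was lost without clone 11 replicate 2 of day 21 (adjusted p = 0.0673) and that of KEAP1 without clone 11 replicate 2 of day 0 (adjusted p = 0.0651). That of AXL was lost without replicate 2 of either clone at day 21 or clone 11 replicate 1 at day 0 (adjusted p up to 0.0743). That of NFIC was lost without clone 8 replicate 1 of either day or clone 11 replicate 2 of day 0 (adjusted p up to 0.0577). That of SLC1A6 was lost without replicate 2 of either clone at day 21, clone 8 replicate 1 or clone 11 replicate 2 at day 0 (adjusted p up to 0.161), and that of ZSCAN18 without any library but clone 8 replicate 1 of day 21 and clone 8 replicate 2 of day 0 (adjusted p up to 0.201). The KEAP1 bin (chr19:10475001-10500000) had no peak in any clone library at day 21, against 4.11%, 1.90%, 1.32% and 4.22% at day 0. It was thus a small loss from a low level.

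Of the 10 most covered bins 1 lost coverage and none gained, where 51.6% of all tested bins gained and 0.367% lost. The ranking of these bins used the day 0 libraries of the clones, the reference of this comparison. A fall was therefore favoured by the choice, and nothing is supported with it. CD177 had 39.5%, 15.3%, 25.3% and 12.1% covered at day 21, against 52.5%, 38.1%, 36.1% and 38.9% at day 0, a difference of −18.4 points (adjusted p = 0.00676). The highest treated library lay above 3 of the untreated ones, and without clone 8 replicate 2 of day 21 the difference was −12.3 (adjusted p = 0.0521). The bin of IL11 had 45.1% ± 6.11 at day 21 and 47.8% ± 4.02 at day 0 (adjusted p = 0.716), and that of MEIS3 had 40.9% ± 8.05 and 43.9% ± 5.66 (adjusted p = 0.706).

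For other gene families of the chromosome the calls at day 21 are given as counts. Of the 1463 tested bins without ZNF genes 149 gained and 20 lost, and of all tested bins 51.6% gained and 0.367% lost. The list counts in this and the next 2 paragraphs stand beside these values. Of 29 tested bins of the CEACAM and PSG genes, of cell adhesion and pregnancy, 4 gained and 1 lost, with a median difference of 1.52 points. Of the gained bins 3 rested on single libraries. The calls of CEACAM7 (9.74% at day 21, 4.68% at day 0), CEACAM19 (15.3% and 4.32%) and the bin of CEACAM19 and CEACAM16 (22.8% and 12.5%) were lost without replicate 1 of either clone at day 21 or clone 8 replicate 2 at day 0, and also without clone 11 replicate 1 at day 0 for the first and second and clone 11 replicate 2 at day 0 for the first and last (adjusted p up to 0.229, 0.186 and 0.266). CEACAM21 (chr19:41550001-41575000) gained, with 15.1% ± 2.99 at day 21 and 6.76% ± 2.15 at day 0 (adjusted p = 0.00594), but the difference turned to −0.54 after scaling. CEACAM5, the carcinoembryonic antigen, (chr19:41700001-41725000) lost, with 25.9% ± 5.76 and 38% ± 6.59 (adjusted p = 0.0396), a call lost without any library but clone 11 replicate 1 of day 21 and clone 8 replicate 2 of day 0 (adjusted p up to 0.163). Of 20 cytochrome bins 3 gained, with CYP2B6 (chr19:40975001-41000000) at 11.5% ± 1.08 at day 21 and 3.34% ± 1.43 at day 0 (adjusted p = 0.00282). None lost, and the median was 1.29 points.

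Of the immune gene lists, 0 bins passed the limma test among 19 of the SIGLEC genes, sialic acid receptors of leukocytes, and among 29 of the leukocyte receptor complex, with 0 and 1 at an unadjusted p under 0.05 and median differences of −0.21 and 0.30 points. Among 12 bins of the kallikreins, a family of secreted proteases, and 3 of the chorionic gonadotropin genes 0 passed as well, with 0 at an unadjusted p under 0.05 and medians of 1.71 and −0.96. The median over all tested bins without ZNF genes was 0.698. Of 37 bins of lymphocyte genes 3 gained, those of KLF2, POU2F2 (the lymphocyte factor OCT2) and ICAM3, an adhesion molecule. The bin that ends at the start of KLF2 (chr19:16300001-16325000) had 13.3% ± 7.96 at day 21 and 3.10% ± 1.56 at day 0 (adjusted p = 0.00176), a call kept with any 1 library left out. The call of POU2F2 (24.4% at day 21, 12.1% at day 0) was lost without clone 8 replicate 2 of either day, clone 11 replicate 1 of day 21 or clone 11 replicate 2 of day 0 (adjusted p up to 0.148), and its difference turned to −3.07 after scaling. That of ICAM3 (11.2% and 4.28%) was lost without any library but clone 11 replicate 1 of day 21 (adjusted p up to 0.252). Of 14 adhesion GPCR bins 1 gained, that of ADGRE1, a macrophage receptor (chr19:6900001-6925000), with 8.29% ± 3.87 at day 21 and 0% in all libraries at day 0 (adjusted p = 0.00124).

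Of 34 bins of developmental transcription factors 2 gained (KLF2 and CEBPA) and 1 lost (NFIC); of 46 ion channel bins 1 gained (GRIK5) and of 20 olfactory and chemosensory receptor bins 1 gained (OR7D2). The calls of GRIK5 (21.2% at day 21, 8.14% at day 0) and OR7D2 (7.03% and 1.92%) were lost without replicate 1 of either clone at day 21, clone 8 replicate 2 or either clone 11 library at day 0, and that of CEBPA (17.6% and 7.75%) without either clone 8 library or clone 11 replicate 1 at day 21 or replicate 2 of either clone at day 0 (adjusted p up to 0.198, 0.195 and 0.206). Each of these 3 differences turned negative in at least 1 alternative. Of 21 bins of zinc finger genes with other names 1 lost (ZSCAN18) and none gained. Of 21 bins of ribosomal and housekeeping genes, which are active in all cells, 0 gained and 0 lost in the limma fit, and 1 had an unadjusted p under 0.05. The promoters of these active genes were inside called peaks: 16 of them were covered to 90.9% ± 2.66 at day 21 and to 89.3% ± 7.18 at day 0, and to 86.6% in KO clones and 85.7% in their parental line.

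Mean promoter coverage in these bins also differed from day 0 by less than the spread between libraries. The 1226 promoters in these bins were covered to 59.6% ± 4.84 at day 21 and to 58.3% ± 5.98 at day 0, against 53.7% and 43.8% for 20906 promoters elsewhere, and the log2 ratio differed by −0.27. Their CG content was much like that elsewhere, with a median of 21 CG in both and a median GC content of 64.3%, against 62.3% elsewhere. Promoters with 0 to 5 CG, the class of the galectin and CYP2A6 promoters printed above, were covered to 28.8% ± 6.87 at day 21 and 22.4% ± 6.83 at day 0 in these bins (182 promoters), against 13.9% and 5.35% elsewhere (4545 promoters). With 6 to 19 CG the values were 47.0% and 45.5% here (398 promoters), against 41.2% and 31.7% elsewhere (5307). With 20 CG or more, the class of CNN2 and KLF2, they were 76.0% and 76.3% here (646), against 76.1% and 65.5% elsewhere (11054).

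**Figure D5:**
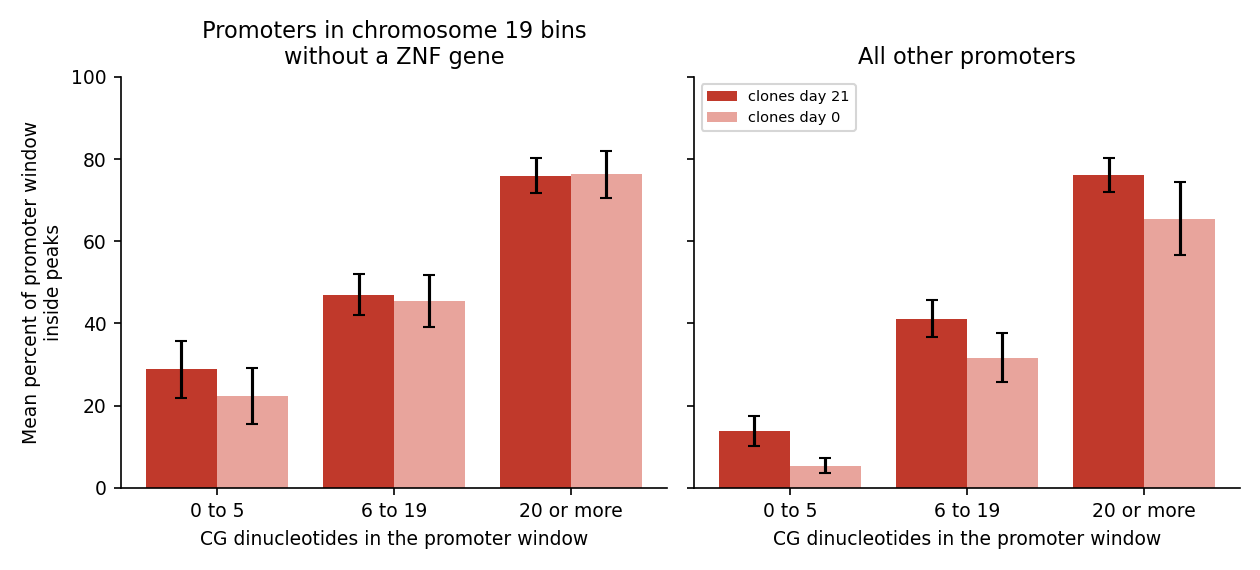
Mean percent of promoter bases inside called peaks of the H3K27me3 libraries (y axis, linear, starting at 0) by number of CG dinucleotides in the promoter (x axis, 3 classes), in the dTAG clones at day 21 and day 0, for the chromosome 19 bins without ZNF genes and the rest of the genome. In the class of 20 or more CG the chromosome 19 promoters stand at 76.0% at day 21 and 76.3% at day 0.

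The KO clones gave like levels, shown as a description. Mean coverage of the bins was 10.5% ± 1.21 in KO clones (n = 4) and 10.8% ± 3.00 in their parental line (n = 2), against 4.21% and 2.09% in the rest of the genome. The log2 ratio was 1.13 and 1.15 in KO clone 3 and 1.47 and 1.61 in KO clone 12, against 2.36 and 2.38 in the parental line. The bins held 3.87% of the called length in KO clones and 7.55% in the parental line. The bin counts were 47 gained and 19 lost, where 37.3% and 0.522% of all tested bins were called. They were 19 and 616 after scaling to the same called length, and 55 and 48 with the replicate number as a block. Over all tested bins these settings gave 13667 and 6044, and 21074 and 490. The 47 gained bins became 18 and 11 without replicate 1 and replicate 2 of the parental line and 29 without replicate 1 of KO clone 12, and the 19 lost became 9 without replicate 1 of the parental line and 11 without replicate 2 of KO clone 12.

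Among the gained bins of the KO clones the CLC bin had the largest difference, with 20.9% and 18.4% in clone 3 and 15.7% and 15.0% in clone 12, against 2.65% and 3.44% in the parental line. The galectin run as a whole had 14.5% and 13.1% in KO clone 3 and 11.4% and 8.75% in KO clone 12, against 4.74% and 4.71% in the parental line. The bin of IFNL1, an interferon lambda (chr19:39275001-39300000), averaged 12.0% in KO clones and 3.16% in the parental line. Among the lost bins that of STK11, a tumour suppressor kinase, (chr19:1225001-1250000) had 21.9%, 13.5%, 15.5% and 18.1% in KO clones, against 36.2% and 30.6% in the parental line, and that of LAIR1, an inhibitory leukocyte receptor, (chr19:54350001-54375000) averaged 4.87% and 15.1%.

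The gained bins of the 2 systems overlapped in part. Of the gained bins 32 were called in both, which is 21.5% of the 149 of the dTAG clones and 68.1% of the 47 of the KO clones. No lost bin was called in both. Of the 149 bins gained at day 21 118 were also higher in KO clones than in their parental line, and of the 20 lost 19 were also lower. The share higher in KO clones was 83.4% over all tested bins and 43.2% over the tested bins described here. The bin next to ZIM2 had 9.27%, 2.49%, 25.4% and 9.45% in KO clones, against 20.8% and 3.45% in the parental line, so there the groups overlapped.

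The untagged parental line gave no called bin: 0 gained and 0 lost at day 21 (limma, Benjamini-Hochberg), where 0% of all tested bins were called in either direction, and 61 of the 1463 bins had an unadjusted p under 0.05. Mean coverage of the bins was 11.6% ± 4.30 at day 21 and 9.22% ± 3.52 at day 0 (n = 2 each), and that of the rest of the genome 2.42% and 1.79%. The log2 ratio was 2.30 at day 7, 2.31 at day 14 and 2.27 at day 21, against 2.40 at day 0. Over the galectin run the untagged line had 6.79% and 4.79% at day 21 and 5.85% and 2.98% at day 0. The difference between the changes of the clones and of the untagged line in the ratio was not tested.

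For single bins that difference was tested as an interaction, and 2 bins changed more in the clones, where 3.39% of all tested bins were called; 0 changed less, against 0.0582% of all tested bins, and 100 had an unadjusted p under 0.05 in either direction. They were the NLRP13 bin (difference of changes 10.5 points, adjusted p = 0.0366) and a gene-free bin 5120 bases from FXYD5, a regulator of the sodium pump (chr19:35175001-35200000; 13.1 points, adjusted p = 0.0299). The FXYD5 bin averaged 13.8% in clone 8 and 9.60% in clone 11 at day 21, against 0% and 0.550% at day 0, while the untagged line had 0% at day 21 and 1.73% at day 0. The count of 2 became 0 when any of 8 of the 12 libraries was left out, the 4 of the untagged line and the 4 of the clones at day 0. It became 16 without clone 8 replicate 2 of day 21 and 22 without clone 11 replicate 2 of day 21.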

How the data were processed

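H3K27me3 was profiled by CUT&Tag in KMS-11 cells, and 30 libraries in 15 groups were analysed; 10 libraries of IgG or other marks were not analysed here. Each deposited file is a broad peak list whose columns hold, as the authors deposited them, a score, a fold ratio over background, and −log10 p and −log10 q values; the authors' folds were used only to work out the background pileup. Per the submitters' processing notes the tools, on hg38, included MACS3 3.0.2, Bowtie2, ChIPseeker 1.42.1, fastp 0.24.0, DESeq2, Picard, deepTools 3.5.1 and SAMtools, with settings and any control library not given in the sources used here. Longer lists follow from deeper libraries as well as from more marked sequence, and depth is not in the files.

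Peaks of a library were merged, and the percent of each 25-kb bin inside them was computed (Python 3.11.15, pandas 2.3.3, numpy 2.4.6, figures with matplotlib 3.10.9). Bins with a mean of 1% to 99% over the libraries were fitted in R 4.3.3 by limma 3.58.1, using a mean for each group, a trended variance and Benjamini-Hochberg adjustment over 49812 bins; a call is an adjusted p under 0.05. The fit recovered changes put into simulated data with independent noise and no effect of depth, clone or replicate. That check says nothing of how such effects act on the calls, and the share recovered is not given here. Clones were averaged with equal weight. Gains and losses are differences in percentage points. The background pileup was solved from the shortest 2% of peaks of each list. Named bins are the 10 with the largest differences in each direction among called bins whose compared libraries did not overlap, the 10 most covered in the reference lines, and the called bins of the gene lists. Bins, lists and rule were chosen with earlier results of these data known. Means over the bins carry no p-value for this reason, although exact permutation tests had been planned, and the knockout comparison is a description. Gene names and promoter sequences come from RefSeq (GRCh38.p14). Alternatives changed the scaling, the peak threshold, the merging, the filter, the libraries in the fit and the bins left out; leaving out bases within 1 kb of gene starts was chosen after seeing the data.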

Additional observations from a re-analysis of the deposited data

Results flagged for a closer look

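In 2 bins the change at day 21 was larger in the treated dTAG clones than in the untagged parental line by a test of that difference (limma interaction, Benjamini-Hochberg). The excess was 10.5 percentage points (10.457) in the NLRP13 bin at position 55900001 and 13.1 (13.148) in the gene-free bin at position 35175001 near FXYD5. Over all tested bins 3.39% were called in this direction, so 2 of 1463 is a low count. With 1 library left out the excess ran from 9.76 to 11.2 and from 12.2 to 14.1. As given above, the calls rested on single libraries, and the untagged line had only 2 per day.

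Of 75 groups of 4 libraries looked at, 5 had a highest or lowest library far from the other 3, where chance alone gives about 1 in 20; in 3 of these 5 the others were at 0%, so that any covered base would stand out. In clones at day 21 the highest library of the bin next to ZIM2 was clone 8 replicate 2 with 1.29% (1.288), where the others were at 0%. In clones at day 0 the highest library was clone 8 replicate 1 with 3.56% (3.556) in the FCGBP bin and clone 8 replicate 2 with 1.79% (1.788) in the bin before LGALS16, again with the others at 0%. At day 0, clone 8 replicate 2 was the lowest in the bin of STX10 and IER2 with 19.0% (19.044), and clone 8 replicate 1 was the highest in the bin of C2CD4C and SHC2 with 48.8% (48.828).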

How the results depend on the processing

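The difference in log2 ratio of the bins over the rest kept its sign in every alternative run for it. That sign was favoured by the choice of the bins, and scaling and division by the pileup cannot change the ratio. Of the bin counts few were steady. Counts below are given as gained/lost, in the order day 7, day 14, day 21 and KO, with the interaction last as higher/lower; values not named stayed within 1.5 times. Scaling to the same called length gave 47/852, 50/926, 56/920 and 19/616, 1 gained bin in the untagged line, and 8/238. Lists of equal length gave 2/111, 6/197, 5/179, 3/50 and 0/9. A −log10 q of at least 5 gave 0/0, 0/2, 0/3, 0/1 and 0 higher. Joined gaps of up to 3 kb gave 39/1, 52/4, 90/5, 25/10, 1 gained in the untagged line, and 0/1. The pileup covariate gave 33/140, 50/294, 63/284, 152 lost in KO, and 7/42. With no filter they were 55/4, 59/12, 11 lost at day 21 and 0 higher. With only the compared groups the counts were 18 lost at day 7, 24/11 in KO and 9/3, and without gene starts 1 lower. Over all tested bins at day 21, scaling gave 18783/8524, equal length 2261/1664 and the pileup covariate 16200/2284, against 25698/183 in the main fit.

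With the replicate number as a block the counts were 154/17 at day 7, 48 lost at day 14, 45 lost at day 21, 48 lost in KO, 1 gained in the untagged line, and 10/19. Deviations of same-numbered libraries correlated between 0.0480 and 0.396 in the dTAG clones, between 0.134 and 0.198 in the KO comparison and by 0.679 in the untagged line. All were positive, but in each dTAG clone comparison at least 1 pair of groups was under 0.1, so a pairing is not established there, and no label gives one.

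The difference in mean coverage of the bins, in percentage points at days 7, 14 and 21, was −8.06, −8.82 and −8.83 after scaling (KO −7.24, untagged line −1.17), −1.998, −2.49 and −2.39 with equal length (untagged line −0.29), −0.65, −1.58 and −1.07 with the q threshold, and −3.85, −4.60 and −4.68 after division by the pileup (untagged line −1.07); joined gaps gave 3.32 at day 7 and 0.70 in KO. The difference in log2 ratio at days 7, 14 and 21 and in KO was −0.55, −0.71, −0.68 and −0.48 with equal length, −0.64, −0.79, −0.77 and −0.51 with the q threshold and −1.16, −1.32, −1.32 and −1.14 without gene starts; joined gaps gave −1.26 at day 21 and −1.11 in KO. The causes were not tested.

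With 1 library left out, gained and lost bins ranged over 41 to 86 and 2 to 17 at day 7, 40 to 127 and 7 to 49 at day 14, 79 to 180 and 7 to 49 at day 21, 11 to 51 and 9 to 26 in KO, 0 to 3 and 0 to 0 in the untagged line, and the interaction over 0 to 22 higher and 0 to 6 lower. The difference in mean coverage ranged over 0.44 to 2.14, −0.48 to 1.22 and 0.16 to 1.87 at days 7, 14 and 21, −2.47 to 1.77 in KO and −0.63 to 5.45 in the untagged line. That in log2 ratio ranged over −1.08 to −1.005, −1.24 to −1.12 and −1.20 to −1.15, −1.12 to −0.97 in KO and −0.21 to −0.03 in the untagged line.

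Single bins changed sign as follows. Scaling gave −5.23 for the FCGBP bin at 39925001, −3.17 for APOC4, −0.25 for CEBPA, −0.54 for CEACAM21, −0.53 for CEACAM7, −3.07 for POU2F2 and −3.95 for the bin of CEACAM19 and CEACAM16. Equal length gave −0.75 for OR7D2, −2.55 for CEBPA and, in KO, −3.25 for LGALS16 and −1.11 for IFNL1. The q threshold gave −0.85 for FBXO46, −1.53 for CEBPA, −0.21 for CYP2B6, −0.81 for GRIK5 and, in KO, −0.38 for IFNL1; joined gaps gave 7.37 for AXL. Permutations within clone and within replicate number were not run, since means over the bins carry no p-value.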
